A study of Mus musculus with 8 samples.

Results

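Leukocytes of the skin were followed through 34 genes, 14 of general leukocyte type and 20 of myeloid type, in RNA-seq of mouse tail epidermis. The genes were taken as a fixed list of names, and all 34 were found among the 46983 gene identifiers of the count table. The study concerned Ppp1r8, the gene of NIPP1, which binds the phosphatase PP1 in the nucleus and regulates it, and its loss from epidermis. Tail epidermis of 8 mice aged 8 weeks was compared, 4 mice per group and 1 library per mouse, all carrying the transgene Tg(KRT14-cre)1Amc/J together with the Ppp1r8tm1Ave and Ppp1r8tm1.1Itl alleles named for the strain. The 4 CTR mice had the genotype K14-Cre/+ Ppp1r8 fl/+ and the 4 SKO mice K14-Cre/+ Ppp1r8 fl/-. Both groups therefore carried the Cre transgene and 1 floxed allele, and they differed in the second allele, which was wild-type in CTR and null in SKO. The K14 promoter drives Cre in keratinocytes of the basal layer, so that cells outside that lineage carry 1 floxed and 1 null allele in SKO mice. Whole epidermis was peeled from dispase-treated skin with no sorting named in the labels, so any leukocyte signal is a small part of a keratinocyte library. Dermis that comes away with the sheet would also bring leukocytes.

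Leukocytes share a set of proteins for motility and signalling, among them the phosphatase CD45, the actin regulators coronin 1A and L-plastin, and the exchange factor VAV1. Myeloid cells (monocytes, macrophages, neutrophils and relatives) add receptors for colony-stimulating factors, Fc receptors, the integrin CD11b/CD18 and the phagocyte NADPH oxidase, and the transcription factor PU.1, encoded by Spi1, is needed for their development. In undisturbed mouse epidermis the resident leukocytes are mainly Langerhans cells and dendritic epidermal T cells. Macrophages and mast cells lie mostly in the dermis, and neutrophils enter inflamed skin from the blood.

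Library totals ranged from 16696212 to 21571935 counts, and 3 counts, taken as the floor of detection in a library, corresponded to 0.141 to 0.185 normalised CPM (counts scaled to a common library size). Ppp1r8 itself was at 40.4, 34.7, 41.5 and 35.0 CPM in CTR 1 to 4 and at 35.3, 28.3, 34.3 and 47.4 CPM in SKO 1 to 4. The groups overlapped and the gene was not called (log2 fold change -0.06, adjusted p = 0.789), so the count of the whole gene did not show the deletion, whose extent is not given in the sources used here. The groups below are therefore those of the libraries labelled CTR and SKO. The keratinocyte genes Krt5 and Krt14 were abundant in every library (Krt5 at 8783 ± 678 CPM in CTR), while the differentiation keratins Krt1 and Krt10 rose 7.38-fold and 1.99-fold (adjusted p = 9.43e-05 and 0.000486). The 7 keratinocyte genes summed to 40375 to 44676 CPM in CTR and 62340 to 80521 CPM in SKO, and the part of this shift in the member results was not tested. The 34 members together took 91.0 to 115 CPM in CTR and 151 to 165 CPM in SKO. Of the collagen genes that dermis expresses strongly, Col3a1 stood at 7.16 CPM in CTR 2 and 4.76 CPM in SKO 4 against 0.680 to 1.69 CPM in the other 6 libraries.

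Genes of both kinds were higher in SKO, among them the actin regulator genes Coro1a and Lcp1, the integrin gene Itgb2, the Fc receptor gene Fcgr2b and the oxidase subunit gene Ncf1, while the macrophage markers Csf1r and Cd68 did not pass the threshold. Of the 14 general members 13 could be tested, and 6 rose: Coro1a, Lcp1, Arhgdib, Cd53, Cytip and Cd48. Of the 20 myeloid members 12 could be tested, and 4 rose: Itgb2, Fcgr2b, Csf2rb and Ncf1. No member fell (edgeR quasi-likelihood test, Benjamini-Hochberg adjusted p under 0.05 over all 15638 tested genes). In the same fit, 11.5% of all tested genes were called higher in SKO and 12.2% lower. The median log2 fold change was 0.83 over the 13 general members tested and 0.55 over the 12 myeloid members tested, beside -0.003 over all tested genes. Cd48 passed the count filter through SKO libraries alone, so these counts and medians describe the tested members and lend no support by themselves. Whether general and myeloid members differed from each other was not tested. In whole tissue, more cells of a type and more RNA per cell cannot be told apart.

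**Figure D1:**
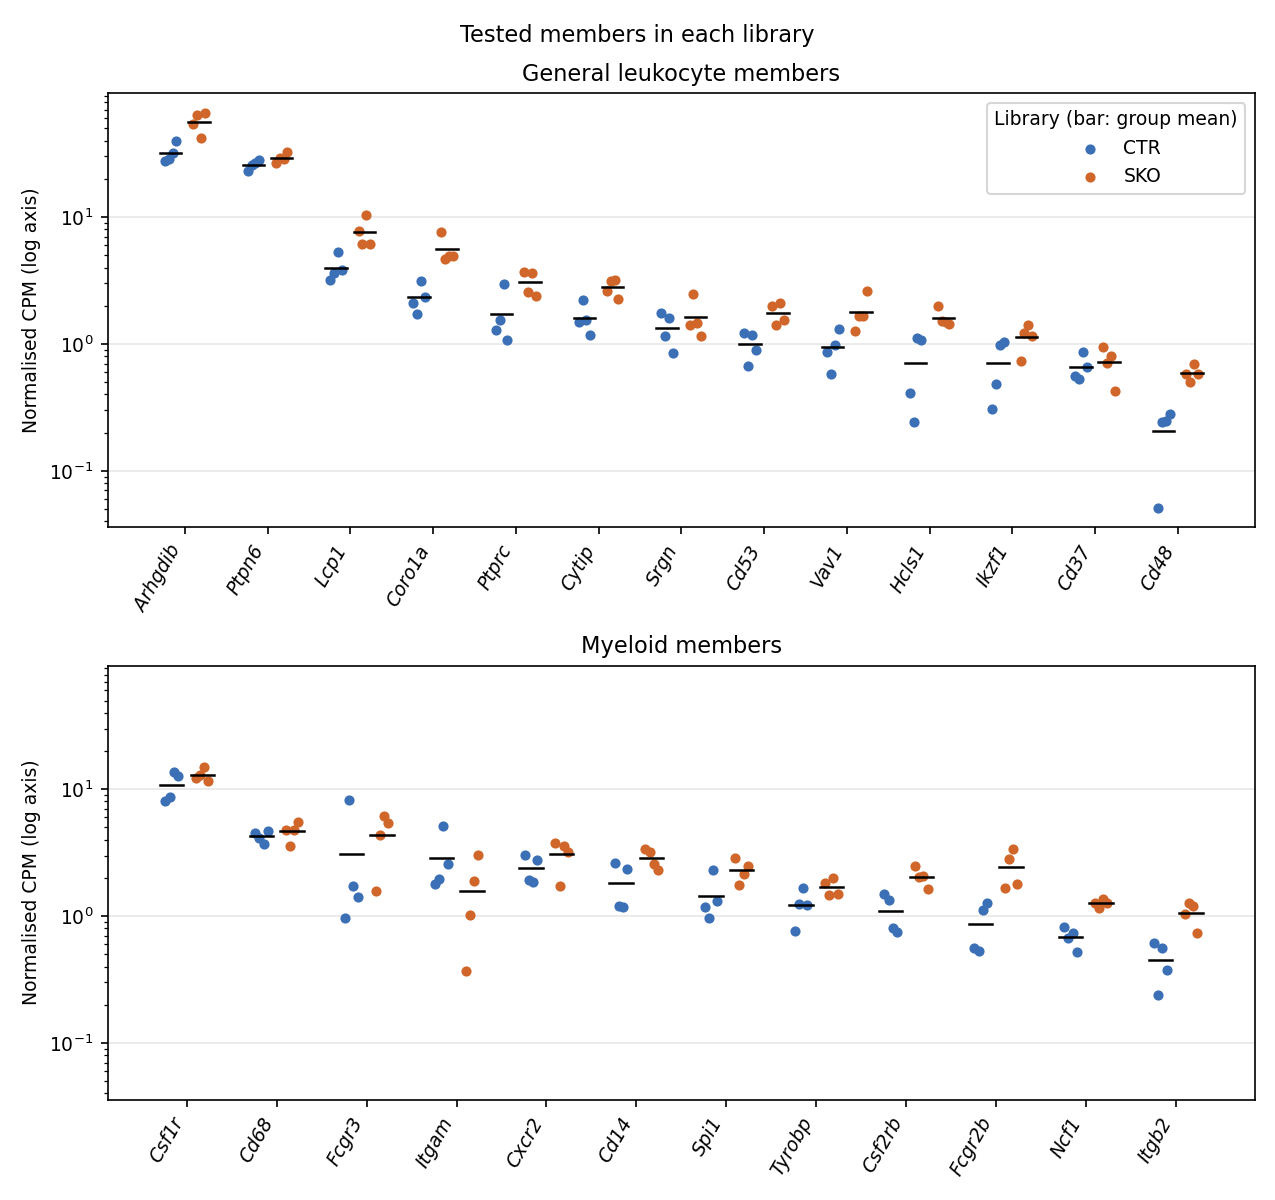
Normalised CPM (log axis) of the 25 tested members in each library, general members above and myeloid members below, with 4 CTR points, 4 SKO points and a bar at each group mean per gene. All SKO points of Coro1a, Lcp1, Arhgdib and Ncf1 lie above all CTR points, while those of Cd68, Csf1r and Cxcr2 overlap.

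Coro1a (ENSMUSG00000030707.15, chromosome 7, 126699773 to 126707787, GRCm38), encoding coronin 1A of the actin cortex, was at 2.1, 1.73, 3.15 and 2.35 CPM in CTR 1 to 4 and at 7.59, 4.70, 4.95 and 4.97 CPM in SKO 1 to 4. The groups did not overlap, and SKO 1 stood apart at the top. Over all tested genes, 12.8% had all SKO libraries above all CTR libraries. The fitted rise of Coro1a was 2.39-fold (log2 fold change 1.26, SE 0.23, adjusted p = 0.00458). Lcp1 (ENSMUSG00000021998.16, chromosome 14, 75131101 to 75230842), the gene of the actin bundler L-plastin, was at 3.17, 3.60, 5.25 and 3.86 CPM in CTR and at 7.80, 6.16, 10.4 and 6.13 CPM in SKO. It rose by 0.95 on the log2 scale (SE 0.22, adjusted p = 0.0123), again without overlap of the groups.

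Arhgdib (ENSMUSG00000030220.13, chromosome 6, 136923655 to 136941899), which encodes a GDP-dissociation inhibitor of small GTPases in blood cells, was the most abundant member. It had 27.4, 28.6, 31.8 and 39.5 CPM in CTR and 54.4, 63.3, 41.6 and 65.8 CPM in SKO. The lowest SKO library, SKO 3, lay just above the highest CTR library, CTR 4. Arhgdib rose by 0.82 (log2, SE 0.16, adjusted p = 0.00571). Per kilobase of exon it stood at 18.7 ± 3.17 RPKM in CTR, with Ptpn6 next at 9.23 ± 0.826 RPKM, while Ptprc, the CD45 gene that defines leukocytes, had 0.0937 ± 0.0466 RPKM (SD, n = 4 each). Arhgdib and Ptpn6 thus made up most of the summed level of the general members, and cells other than leukocytes can express both. Which cells they came from was not tested. Ptpn6, the gene of the phosphatase SHP-1, was at 22.9 to 28.4 CPM in CTR and 26.9 to 32.4 CPM in SKO (log2 fold change 0.18, SE 0.09, adjusted p = 0.186), and its groups overlapped.

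The surface and adaptor genes of general type followed at lower levels. Cd53 (chromosome 3, 106759921 to 106790149), a tetraspanin gene, was at 1.23, 0.673, 1.17 and 0.893 CPM in CTR and at 1.99, 1.41, 2.1 and 1.53 CPM in SKO (log2 fold change 0.83, SE 0.25, adjusted p = 0.0362). Cytip (chromosome 2, 58129137 to 58195532), whose product regulates integrin adhesion through cytohesin, was at 1.48, 2.21, 1.55 and 1.18 CPM in CTR and at 2.62, 3.13, 3.20 and 2.27 CPM in SKO (0.80, SE 0.23, adjusted p = 0.0288). Neither gene's groups overlapped, though SKO 4 and CTR 2 were close for Cytip. Cd48 (chromosome 1, 171682009 to 171705258), a ligand of the lymphocyte receptor 2B4, had 1, 5, 4 and 6 counts in CTR 1 to 4 and 11, 10, 14 and 11 counts in SKO 1 to 4. Its fitted rise was 2.82-fold (log2 SE 0.38, adjusted p = 0.0197), and it rests on few reads. The calls of Cd53 and Cytip depended on single libraries. Cd53 lost its call without CTR 2, 3 or 4 or SKO 1, 3 or 4, with no count filter, and without CTR 2 and SKO 4 together, where its adjusted p was highest at 0.117. Cytip lost it without CTR 1, 3 or 4 or SKO 2 or 3, with an adjusted p of up to 0.0721, and Cd48 only without CTR 2 and SKO 4 together (0.0778), the libraries highest in Col3a1.

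Ptprc (ENSMUSG00000026395.16, chromosome 1, 138062861 to 138175708) did not pass the threshold. Its levels were 1.28, 1.54, 2.97 and 1.08 CPM in CTR and 3.72, 2.58, 3.65 and 2.38 CPM in SKO. CTR 3 was above SKO 2 and SKO 4, and the other CTR libraries were below all SKO libraries. The log2 fold change was 0.87 (SE 0.31, adjusted p = 0.0709). Without CTR 3 it was 1.24 (adjusted p = 0.0136), and over all alternatives the adjusted p ran from 0.0136 to 0.165. CTR 3 was also the CTR library with most Coro1a, Lcp1, Cd37 and Csf1r.

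Vav1, Hcls1 and Ikzf1 were near or above the threshold. Vav1, encoding an exchange factor for small GTPases downstream of antigen receptors, was at 0.577 to 1.32 CPM in CTR and 1.26 to 2.59 CPM in SKO (log2 fold change 0.93, SE 0.30, adjusted p = 0.0504). SKO 1 lay below CTR 4, and the other SKO libraries were above all CTR libraries. Hcls1, encoding a cortactin relative of blood cells, was at 0.409, 0.240, 1.11 and 1.08 CPM in CTR and at 1.99, 1.52, 1.5 and 1.43 CPM in SKO (1.19, SE 0.40, adjusted p = 0.0546). Its groups did not overlap, but the CTR libraries fell into a low and a high pair. DESeq2, also run on these counts, called Vav1, Hcls1 and Ptprc. Ikzf1, the gene of the lymphoid transcription factor Ikaros, was at 0.307 to 1.03 CPM in CTR and 0.733 to 1.4 CPM in SKO (adjusted p = 0.206).

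Cd37 and Srgn showed the smallest differences of the general members beside Ptpn6. Cd37, a tetraspanin gene of mature B cells and other leukocytes, was at 0.529 to 0.865 CPM in CTR and 0.423 to 0.943 CPM in SKO (log2 fold change 0.15, SE 0.30, adjusted p = 0.745). Srgn, the gene of the granule proteoglycan serglycin, was at 0.846 to 1.74 CPM in CTR and 1.16 to 2.48 CPM in SKO (0.29, SE 0.31, adjusted p = 0.512).

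**Figure D2:**
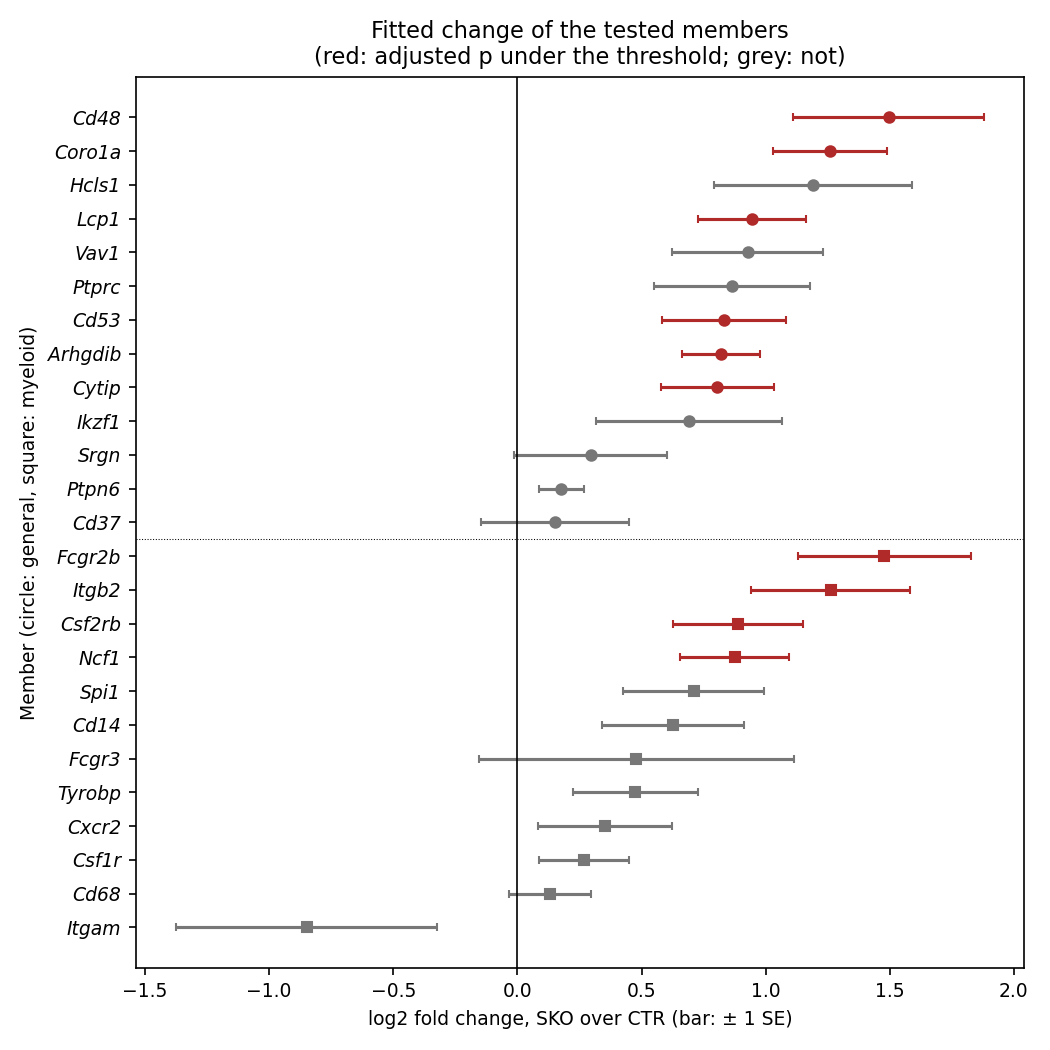
Log2 fold change of SKO over CTR with 1 SE for the 25 tested members, general members as circles above the dotted line and myeloid members as squares below it, red where the adjusted p was under 0.05. Of the tested members, 24 lie above 0 and Itgam lies below it.

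Promoters of general members were searched because several of these genes were higher in the same libraries. RefSeq promoter entries (GRCm38.p6) were matched for 26 of the 34 members, and the 250 bases before each start were searched on both strands for AGGAAG, a core bound by PU.1 and other ETS factors, and for the longer GAGGAAG that contains it. AGGAAG stood in 9 of 20 promoter entries of general members and 8 of 14 of myeloid members, against 29.5% of all 32851 entries. GAGGAAG stood in 2 of 20 and 5 of 14, against 10.6% of all entries. Some genes have several entries. Most members with AGGAAG were not called higher. Of general type these were Cd37, Hcls1, Ikzf1, Ptpn6, Ptprc and Vav1. None of the 7 myeloid genes with it was called. Shown are the called members with a match, Coro1a and Arhgdib, and Vav1 for the longer motif. Each is written 5′ to 3′ on the gene's strand and ends at the base before the start, with the matches on either strand in capitals.
Coro1a, chr7:126704221-126704470, minus strand: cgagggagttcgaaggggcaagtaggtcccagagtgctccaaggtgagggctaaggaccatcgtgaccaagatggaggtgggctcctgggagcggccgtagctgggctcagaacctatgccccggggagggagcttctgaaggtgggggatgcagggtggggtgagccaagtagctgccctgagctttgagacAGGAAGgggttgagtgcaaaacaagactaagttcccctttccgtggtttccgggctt
Arhgdib, chr6:136941504-136941753, minus strand: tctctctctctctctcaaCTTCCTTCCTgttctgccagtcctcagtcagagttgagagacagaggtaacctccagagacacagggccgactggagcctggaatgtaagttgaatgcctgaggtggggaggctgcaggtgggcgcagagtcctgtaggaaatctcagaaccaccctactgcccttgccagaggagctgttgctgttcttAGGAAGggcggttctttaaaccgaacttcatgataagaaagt
Vav1, chr17:57278850-57279099, plus strand: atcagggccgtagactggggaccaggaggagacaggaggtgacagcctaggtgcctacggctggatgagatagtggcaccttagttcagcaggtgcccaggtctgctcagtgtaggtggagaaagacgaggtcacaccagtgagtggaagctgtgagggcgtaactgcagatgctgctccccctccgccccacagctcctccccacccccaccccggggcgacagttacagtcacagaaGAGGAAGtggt
The Coro1a match begins 57 bases before the start, the nearest Arhgdib match 42 bases and the Vav1 GAGGAAG 11 bases before it. The matches describe letters in these windows and say nothing on binding in these samples.

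Among myeloid members, adhesion and Fc receptor genes gave unlike values. Itgb2 (ENSMUSG00000000290.13, chromosome 10, 77530252 to 77565708) encodes CD18, the beta chain shared by the leukocyte integrins of lymphoid and myeloid cells. It had 0.614, 0.240, 0.556 and 0.376 CPM in CTR and 1.05, 1.26, 1.2 and 0.740 CPM in SKO, with no overlap, and rose by 1.26 on the log2 scale (SE 0.32, adjusted p = 0.0186). Without SKO 2 its adjusted p was 0.0503. Itgam, encoding the alpha chain CD11b that pairs with CD18 on myeloid cells, was at 1.79, 1.97, 5.13 and 2.59 CPM in CTR and at 0.367, 1.01, 1.90 and 3.01 CPM in SKO (-0.85, SE 0.53, adjusted p = 0.264). Its SKO libraries spread from 7 to 57 counts and overlapped those of CTR. In the annotation used here, 68.7% of the exonic bases of Itgam are shared with Gm49368 on the same strand, which had 0 counts in every library, so reads could have been lost from Itgam. That part was not tested.

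Of the other integrin alpha chains that pair with CD18, Itgax, encoding CD11c of dendritic and Langerhans cells, rose from 1.39 ± 0.186 to 2.83 ± 0.490 CPM (SD, n = 4 each, adjusted p = 0.00636). Itgal, encoding CD11a of lymphocytes and named after its values were seen, was at 2.15 to 4.61 CPM in CTR and 1.26 to 3.85 CPM in SKO (log2 fold change -0.70, adjusted p = 0.203). Icam1, the counter-receptor of these integrins, which keratinocytes also express, rose from 12.3 ± 2.01 to 24.0 ± 5.04 CPM (adjusted p = 0.00388). Of 6 genes listed as partners or ligands of CD18, 4 were tested, 2 rose and none fell.

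Fcgr2b (ENSMUSG00000026656.15, chromosome 1, 170958617 to 170976547), the inhibitory IgG receptor of B cells, myeloid cells and Langerhans cells, was at 0.563, 0.529, 1.11 and 1.27 CPM in CTR and at 1.68, 2.83, 3.35 and 1.80 CPM in SKO. Again no CTR library reached the SKO range, and the rise was 2.78-fold (log2 fold change 1.48, SE 0.35, adjusted p = 0.0137). Fcgr3, the activating receptor gene nearby on chromosome 1 (171051174 to 171064935), was at 0.972, 8.27, 1.73 and 1.41 CPM in CTR and at 1.57, 4.34, 6.10 and 5.39 CPM in SKO. CTR 2 was above every SKO library, and the remaining CTR libraries were below 3 of the 4 SKO libraries. The log2 fold change of Fcgr3 was 0.48 (SE 0.63, adjusted p = 0.613), and without CTR 2 it was 1.68 (SE 0.44, adjusted p = 0.0314). CTR 2 was also the library with most Col3a1 (7.16 CPM) and Vwf (4.09 CPM), an endothelial gene, and their part in this value was not tested.

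Activating receptors such as the product of Fcgr3 signal through adaptors with an immunoreceptor tyrosine-based activation motif. Tyrobp, encoding the adaptor DAP12, was at 0.768 to 1.67 CPM in CTR and 1.46 to 2.0 CPM in SKO (log2 fold change 0.47, SE 0.25, adjusted p = 0.196). Fcer1g, encoding the common gamma chain that Fcgr3 needs, had 5, 5, 2 and 7 counts in CTR and 5, 9, 11 and 15 in SKO, too few for the fit. Over the groups this is 19 against 40 counts, 2.11 times as many (95% counting interval 1.19 to 3.85). Of 16 other receptor and kinase genes of this pathway, 8 were tested, 2 rose and none fell. The 2 were Clec7a, the fungal sensor dectin-1, at 0.0618 to 0.153 CPM in CTR and 0.688 to 1.2 CPM in SKO (adjusted p = 0.00112), and the kinase gene Fgr, 3.0-fold higher (adjusted p = 0.00545). Both were named after their values were seen, and both passed the count filter through SKO libraries alone. Their calls therefore lend no support by themselves. The most abundant genes of that list, Sirpa and Plcg2, did not pass the threshold (adjusted p = 0.105 and 0.862). Fcgr4 and Fcer1a had 0 counts in all 8 libraries, and Fcgr1 had 0 in CTR and 3 counts over SKO.

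The cytokine and chemokine receptor genes were detected unevenly. Csf2rb (ENSMUSG00000071713.4, chromosome 15, 78325752 to 78353847), the beta chain of the receptors for GM-CSF, IL-3 and IL-5, was at 1.48, 1.35, 0.803 and 0.752 CPM in CTR and at 2.46, 2.02, 2.05 and 1.64 CPM in SKO. The groups did not overlap, and the log2 fold change was 0.89 (SE 0.26, adjusted p = 0.0345). The call ended in 6 of 16 alternatives, namely without CTR 3 or 4, without SKO 1, 2 or 3, and without CTR 2 and SKO 4, with adjusted p up to 0.0885. Csf2rb2, a near-identical gene, rose 1.62-fold (adjusted p = 0.0322), and reads may be split between the pair, so single values are uncertain. The alpha chain gene Csf2ra moved the other way, from 4.59 ± 0.413 CPM to 2.49 ± 0.823 CPM (SD, n = 4 each, log2 fold change -0.88, adjusted p = 0.0192), with all SKO libraries below all CTR libraries (13.4% of all tested genes).

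Csf1r, the receptor of CSF1 and IL-34 on macrophages and Langerhans cells, was the most abundant myeloid member in CPM. It was at 8.03, 8.65, 13.8 and 12.7 CPM in CTR and at 12.4, 12.9, 15.1 and 11.6 CPM in SKO. The opposite-strand gene Hmgxb3 shares 15.1% of the exonic bases of Csf1r, and its part in these levels was not tested. The Csf1r groups overlapped, and the log2 fold change of Csf1r was 0.27 (SE 0.18, adjusted p = 0.305). Of its ligands, Csf1 rose from 5.48 ± 1.17 to 11.6 ± 4.47 CPM (adjusted p = 0.0186) with overlapping groups, while Il34, the ligand that keratinocytes supply to Langerhans cells, named after its values were seen, was at 21.7 ± 2.75 and 23.1 ± 1.57 CPM (SD, n = 4 each, adjusted p = 0.557).

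Cxcr2, the receptor of neutrophils for CXCL1 and related chemokines, which keratinocytes can also express, was at 3.02, 1.92, 1.85 and 2.77 CPM in CTR and at 3.77, 1.72, 3.55 and 3.23 CPM in SKO (log2 fold change 0.35, SE 0.27, adjusted p = 0.368). Its ligand gene Cxcl1 rose 7.14-fold (adjusted p = 0.00563). Csf3r, the G-CSF receptor gene of neutrophils, had 7 counts in CTR 1, 1 in SKO 1, 3 in SKO 2 and 0 in the other 5 libraries. Cxcr2 therefore had reads in all libraries where Csf3r had nearly none. Of 12 ligand and partner genes of the member receptors 4 were tested, of which Csf1 and Cxcl1 rose and Csf2ra fell. The ligand genes Csf2 and Csf3 had at most 1 count in any library.

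Among macrophage and monocyte markers, none of those tested passed the threshold. Cd68, a lysosomal protein gene, was at 4.50, 4.13, 3.71 and 4.66 CPM in CTR and at 4.77, 3.59, 4.80 and 5.50 CPM in SKO (log2 fold change 0.13, SE 0.16, adjusted p = 0.593). These levels overlapped almost fully. Cd14, the lipopolysaccharide co-receptor gene, was at 2.61, 1.2, 1.17 and 2.35 CPM in CTR and at 3.35, 3.18, 2.55 and 2.33 CPM in SKO (0.63, SE 0.28, adjusted p = 0.136). Spi1, the PU.1 gene, was at 1.18, 0.961, 2.29 and 1.32 CPM in CTR and at 2.88, 1.77, 2.15 and 2.49 CPM in SKO (0.71, SE 0.28, adjusted p = 0.0958). For Spi1 only CTR 3 reached the SKO range, and without CTR 3 the adjusted p was 0.0264.

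The remaining macrophage markers were at or near the floor of detection and were not tested. Mrc1, the mannose receptor gene, had 1 count in CTR 2, 4 in SKO 3 and 0 elsewhere. Cd163, a haemoglobin scavenger receptor gene, had 3 counts over CTR and 2 over SKO. Aif1 had 4 and 11 counts over the groups, 2.75 times as many in SKO (95% counting interval 0.815 to 11.8). Adgre1, encoding F4/80, had 2, 10, 6 and 5 counts in CTR and 6, 9, 10 and 5 in SKO, and its groups overlapped. Lyz2, encoding lysozyme of macrophages and neutrophils, had 4, 3, 3 and 1 counts in CTR and 8, 4, 14 and 5 in SKO, a ratio of 2.82 (1.38 to 6.21). Its near-identical copy Lyz1 had 0 counts in every library. The intervals cover counting error only, since reads carried no molecular identifiers, and not the spread between mice.

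**Figure D3:**
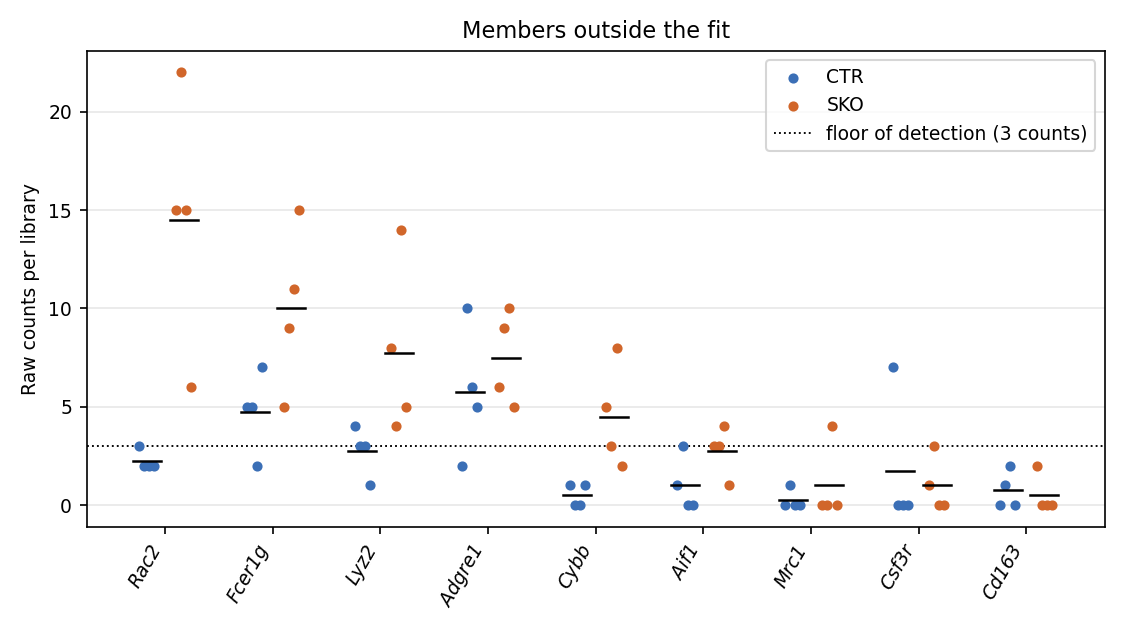
Raw counts per library of the 9 members outside the fit, with CTR and SKO points, group means as bars and a dotted line at the floor of 3 counts. Rac2 has 2 to 3 counts in CTR and 6 to 22 in SKO, while Mrc1, Csf3r and Cd163 lie at 0 in most libraries.

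Genes of the phagocyte NADPH oxidase, which makes superoxide at the membrane, were low in both groups. Ncf1 (ENSMUSG00000015950.13, chromosome 5, 134220053 to 134229625), encoding the cytosolic subunit p47phox, was at 0.819, 0.673, 0.742 and 0.517 CPM in CTR and at 1.26, 1.16, 1.35 and 1.27 CPM in SKO. Its SKO libraries lay close together, all above CTR, and it rose by 0.87 (log2, SE 0.22, adjusted p = 0.0175). The adjusted p of Ncf1 was 0.0537 in DESeq2 and 0.0884 without CTR 2 and SKO 4. An opposite-strand gene, Gtf2ird2, shares 11.1% of its exonic bases, and the strand setting of the counting is not given in the sources used here. Cybb, encoding the membrane subunit gp91phox, had 1, 0, 0 and 1 counts in CTR and 5, 3, 8 and 2 in SKO, or 9.0 times as many (95% counting interval 2.15 to 80.0). Rac2, the GTPase of the oxidase in blood cells and counted here with the general members, had 3, 2, 2 and 2 counts in CTR and 15, 22, 15 and 6 in SKO. Its ratio was 6.44 (3.17 to 14.8). Rac2 also entered the fit and was called higher without CTR 1, 2, 3 or 4 and without SKO 4. The same held without CTR 2 and SKO 4 together. In these fits Rac2 passed the count filter through SKO libraries alone, so the calls lend no support by themselves. With no count filter, the adjusted p was 0.00213 for Rac2 and 0.0312 for Cybb, and the other 7 members outside the fit did not pass (0.107 to 0.839). Of 4 partner genes of the oxidase, all tested, only Cyba, the p22phox gene, rose (1.95-fold, adjusted p = 0.0157).

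Other leukocyte genes were read beside the members. Of 25 further genes of general leukocyte type 20 were tested, 9 rose and 1 fell, with a median log2 fold change of 0.74. Their summed level overlapped between groups (95.02 to 109 CPM in CTR and 88.4 to 122 CPM in SKO). Cd52, a small surface glycoprotein gene, rose from 1.31 ± 0.590 to 3.69 ± 0.547 CPM (SD, n = 4 each, adjusted p = 0.00459). Dock2, an exchange factor gene for leukocyte migration, rose 2.83-fold (adjusted p = 0.00813). Spn, encoding CD43, rose 2.26-fold and Selplg, encoding the selectin ligand PSGL-1, 2.19-fold (adjusted p = 0.00248 and 0.00361). Dock8, the most abundant gene of the list and named after its values were seen, fell from 69.0 ± 5.96 to 47.0 ± 10.6 CPM (SD, n = 4 each, adjusted p = 0.0216). Of 22 further macrophage and monocyte genes 6 were tested, and 2 rose and 2 fell. Maf, a transcription factor gene, fell from 374 ± 45.9 to 209 ± 33.3 CPM (SD, n = 4 each, adjusted p = 0.00203). Ctss rose 2.23-fold and the monocyte chemokine receptor gene Ccr2, named after its values were seen, from 0.251 ± 0.149 to 1.49 ± 0.529 CPM (SD, n = 4 each, adjusted p = 0.00547 and 0.00314). Langerhans cells express Ctss, and T cells can express Ccr2. Ccr2 passed the count filter through SKO libraries alone, so its call lends no support by itself. Summed over the list, SKO was lower, at 491 to 666 CPM against 742 to 895 CPM in CTR. Marco and Cd209f had 0 counts. The complement genes C1qa, C1qb and C1qc of macrophages, named after their values were seen, had too few counts for the fit. C1qb had 2 counts over CTR and 16 over SKO, and C1qc 2 and 22, both with all SKO libraries above all CTR libraries. C1qa had 21 and 35 counts, with overlapping groups.

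Markers of the other leukocytes of the epidermis were higher in the same libraries. The 13 Langerhans and dendritic cell genes summed to 103 to 159 CPM in CTR and 197 to 296 CPM in SKO, and 6 of the 8 tested rose. Among them were H2-Eb1, H2-Aa and H2-Ab1, which present antigen, and Itgax. The 16 T cell genes summed to 10.4 to 17.5 CPM in CTR and 20.04 to 33.5 CPM in SKO, and 5 of the 7 tested rose, with Trbc2, a T cell receptor gene, 1.85-fold higher. The 5 gamma delta T cell genes found summed to 1.13 to 3.46 CPM in CTR and 4.02 to 7.02 CPM in SKO. Of these, Trdc rose 5.16-fold and Itgae 2.13-fold. Trdc and the T cell genes Cd3e and Cd247 passed the count filter through SKO libraries alone. The numbers of T cell genes called therefore lend no support by themselves. Several general members are expressed by both cell types, and the part of these cells in the member results was not tested. Melanocyte genes, of no leukocyte, summed to 201 to 310 CPM in CTR and 294 to 512 CPM in SKO, and 4 of 5 rose.

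Defining markers of the remaining leukocytes were at or near 0. Of 15 neutrophil genes, Ltf, Ngp and Cxcr1 had 0 counts in all libraries. Elane, Mmp8 and Ly6g had at most 3 counts in any library. The list summed to 48.2 to 101 CPM in CTR and 38.3 to 330 CPM in SKO. S100a8 and S100a9, which keratinocytes also express, averaged 4.95 and 3.04 CPM in CTR and 80.7 and 63.7 CPM in SKO. Other genes of the list thus made up most of the CTR sum. Of the 5 tested, 3 rose, namely S100a8 (16.6-fold), S100a9 (21.5-fold) and Mmp9 (4.31-fold). The other 2 had negative log2 fold changes, down to -1.65, and were not called. Of 10 mast cell and basophil genes, none could be tested, Cma1, Mcpt8 and Fcer1a had 0 counts, and the sum was 0.124 to 1.38 CPM in CTR and 0.105 to 0.370 CPM in SKO. Of 6 natural killer cell genes none could be tested, and Ncr1 and Gzma had 0 counts. Among B cell genes, Ms4a1 had 0 counts. The 7 fibroblast genes summed to 34.1 to 53.4 CPM in CTR and 17.5 to 56.6 CPM in SKO, and the 7 endothelial genes to 3.22 to 9.95 and 3.25 to 3.49 CPM. None of the 4 tested in either list passed the threshold.

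**Figure D4:**
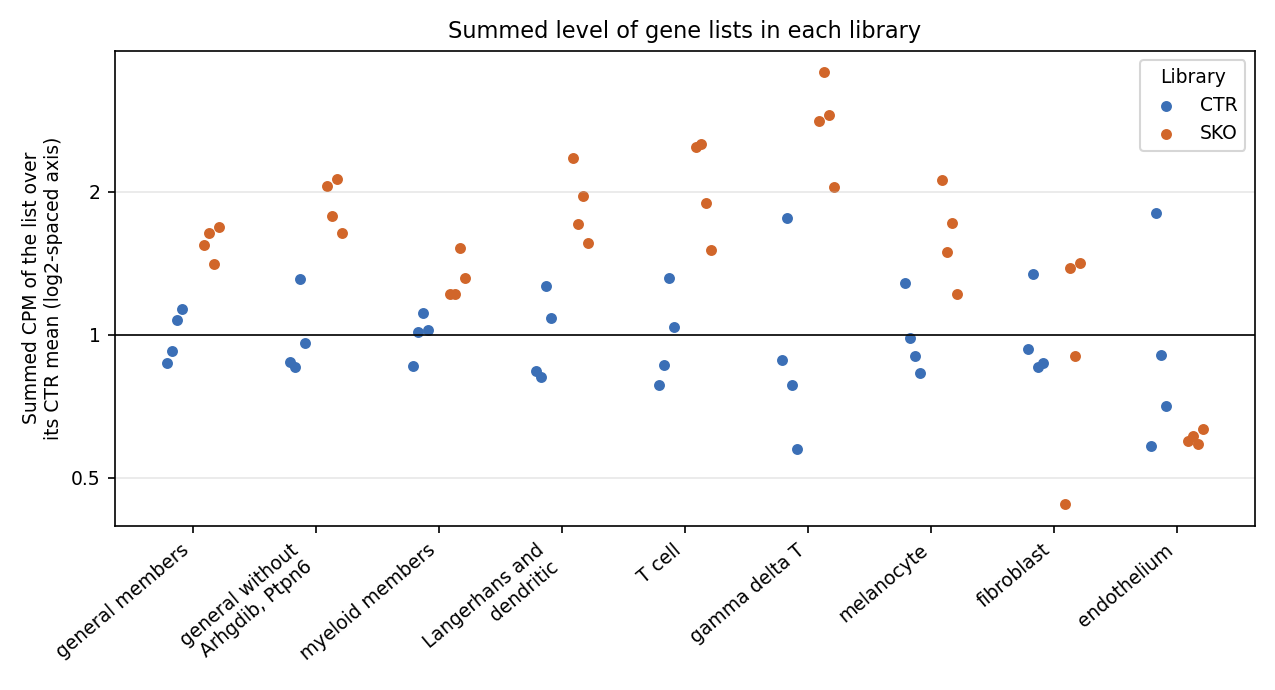
Summed CPM of each gene list in each library, divided by the list's CTR mean (log2-spaced axis), for the members and for markers of other cells. All SKO points of the general members, myeloid members, Langerhans and T cell lists lie above all CTR points, while the fibroblast and endothelial points overlap.

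Myeloid and general members were also set against each other within each library. The general members summed to 63.7, 67.3, 78.5 and 82.5 CPM in CTR 1 to 4 and to 113, 119.7, 103 and 123 CPM in SKO 1 to 4. The myeloid members summed to 27.4, 32.2, 35.4 and 32.6 CPM in CTR and to 38.9, 38.8, 48.6 and 41.9 CPM in SKO. The ratio of myeloid to general was 0.439 ± 0.0355 in CTR and 0.371 ± 0.0691 in SKO (SD, n = 4 each), and the groups overlapped through SKO 3. Arhgdib and Ptpn6 were then left out of the general sum only, a choice made after their levels were seen. The ratio was 1.77 to 2.47 in CTR and 1.24 to 1.68 in SKO, without overlap. This separation depended on keeping the abundant myeloid members Csf1r and Cd68. With both pairs left out, CTR 3 had 17.86 CPM myeloid and 20.02 CPM general. SKO 4 had 24.86 CPM myeloid and 24.96 CPM general, a higher ratio than in CTR 3, so the groups overlapped. Relative to Ptprc in the same library, Itgam lay below the CTR range in all SKO libraries (1.28 to 2.39 in CTR and 0.0986 to 1.27 in SKO), as did Cd37 (0.292 to 0.609 and 0.178 to 0.275). For the other 22 tested members the ratios to Ptprc overlapped between groups. Itgam in SKO 4 lay just below CTR 2 (1.27 against 1.28), and Ptprc had only 23 to 73 counts in a library. The share of all genes so separated relative to Ptprc was not computed. These ratios were not tested.

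The number of members called varied with the processing, while no member was called lower in any of the 16 alternatives. Coro1a, Lcp1, Arhgdib and Fcgr2b were called higher in all of them. Between 7 and 12 members were called higher, the fewest without SKO 2, without SKO 3, and without CTR 2 and SKO 4 together. Some counts with libraries left out include Rac2, which entered those fits through SKO libraries alone.

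**Figure D5:**
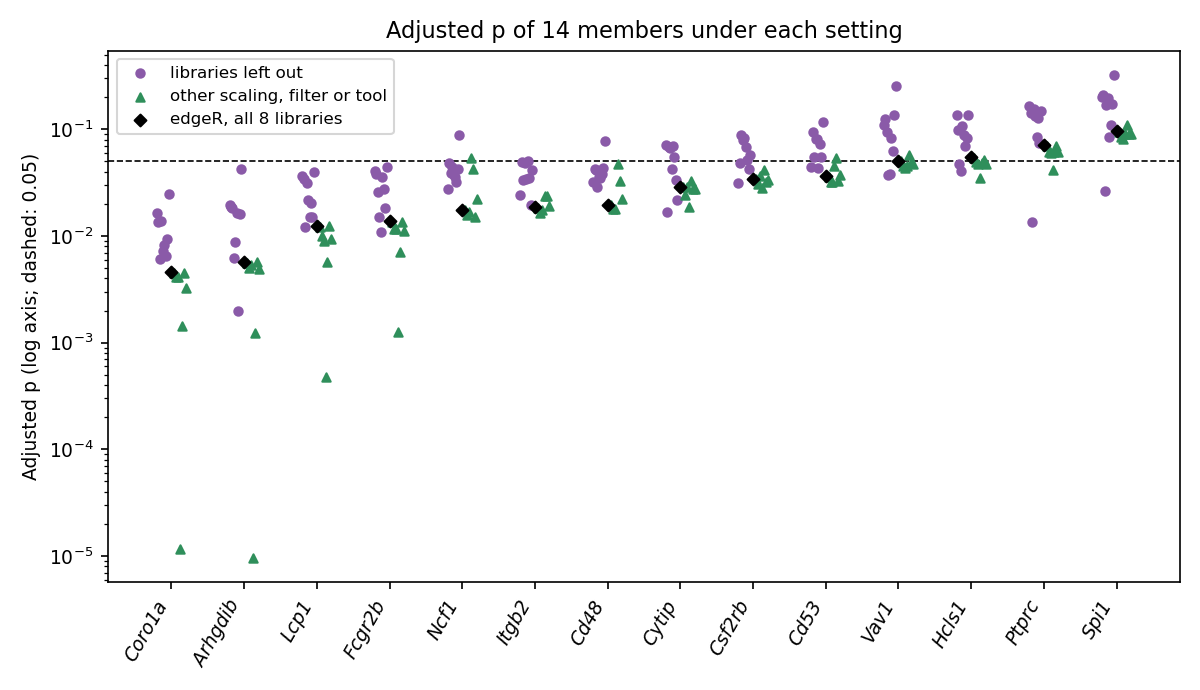
Adjusted p (log axis, dashed line at 0.05) of the 14 members with the lowest adjusted p, as black diamonds for edgeR on all 8 libraries, purple circles with libraries left out and green triangles for another scaling, filter or tool. All points of Coro1a, Lcp1, Arhgdib and Fcgr2b lie below the line, while those of Cd53, Cytip and Csf2rb lie on both sides of it.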

How the data were processed

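Counts per gene were read for 8 libraries, 4 per group. Per the labels, the skin was treated with cold dispase, the epidermis peeled off, and stranded poly-A libraries were sequenced as single reads. The deposited values were raw counts per gene. STAR 2.4.1d, featureCounts 1.4.6 and edgeR 3.8.6 on GRCm38 are among the tools the authors used, per the submitters' processing notes. Annotation, strand setting and handling of multi-mapped reads are not given in the sources used here. Symbols and positions came from GENCODE M21 (GRCm38), which matched 46488 of 46983 identifiers. RPKM used the union of exons.

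Tests used edgeR 4.0.16 under R 4.3.3 (glmQLFit and glmQLFTest, two-sided, group as the only term, all 8 libraries, TMM factors). filterByExpr at default settings, here 0.518 CPM in at least 4 libraries, kept 15638 genes for Benjamini-Hochberg adjustment at 0.05. Fold changes are the fitted ones. The script was tested on simulated data. Libraries of a group differed by more than sampling noise (chi-square per degree of freedom 13.2 to 55.7). Counting intervals are exact (Clopper-Pearson, 95%, scipy 1.17.1). DESeq2 1.42.0, other scalings, filters and left-out libraries were tried. Replicate numbers only name mice, and p-values measure the spread between mice. The members and lists were chosen with earlier results of these data known. All members are named. Some items of the other lists are not reported here. From other lists, up to 4 called genes averaging 1 CPM or more were named by size of change, filled up to 2 with the most abundant.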

Additional observations from a re-analysis of the deposited data

Results flagged for a closer look

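A library standing apart from the other 3 of its group was looked for in 146 groups of 4 values from 81 genes (gap to the nearest other library over the group's range, above Dixon's 95% critical value for 4), and 12 were found. Chance gives about 1 in 20. Among members these were Fcgr3 in CTR 2 (8.27 CPM against 0.972 to 1.73 in the others), Coro1a in SKO 1 (7.59 against 4.70 to 4.97), Hcls1 in SKO 1 (1.99 against 1.43 to 1.52), Csf3r in CTR 1 (0.358 against 0) and Mrc1 in SKO 3 (0.20 against 0). The last 2 rest on 7 and 4 counts. The direction of Fcgr3 was the same without CTR 2, with a larger change.

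Among genes of other lists, CTR 3 was high for S100a8 (9.58 CPM against 3.12 to 3.60), S100a9 (5.99 against 1.63 to 2.35), Selplg (2.78 against 1.79 to 1.83) and Spn (1.11 against 0.913 to 0.941). CTR 4 was high for Hbb-bs (5.22 CPM against 0.102 to 0.433), CTR 2 for Vwf (4.09 against 0.870 to 1.18) and SKO 2 for Trbc1 (6.97 against 2.22 to 2.65).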

How the results depend on the processing

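Between edgeR with RLE, upper-quartile or no scaling factors, DESeq2, no filter, a stricter filter and a robust fit, 9 to 12 members were called higher, against 10 in the reported fit, and none was called lower in any alternative. Of 397 member values under alternatives, 356 kept direction and side of the threshold, 23 lost their call, 18 gained one and 0 reversed. Leaving out 1 library gave 7 to 11 members (4 to 7 general and 2 to 5 myeloid) called higher, the 2 myeloid calls being those without SKO 2. It gave 1253 to 2058 genes called higher and 1336 to 2312 called lower over all genes. Without CTR 2 and SKO 4, an alternative chosen after seeing the data because both were highest in Col3a1, 853 genes were called higher and 855 lower, with 2 myeloid members higher, and fewer samples entered the fit. Calls were gained by Ptprc (DESeq2, and without CTR 3), Vav1 and Hcls1 (7 alternatives each), Spi1 (without CTR 3) and Fcgr3 (without CTR 2). Of members outside the reported fit, Rac2 was called in 7 alternatives and Cybb with no filter. Where libraries were left out, Rac2 passed the count filter through SKO libraries alone, so those calls lend no support by themselves. No paired analysis was possible because the labels give each mouse a number of its own and state no litter, batch or pair shared between the groups. Most members had under 10 CPM, so changes smaller than those called were not detectable for many of them, and the 9 members outside the fit rest on few counts.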
